A study of Mus musculus with 13 samples.

Results

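Gene expression late in the light phase was compared with gene expression late in the dark phase in whole back skin of mice. The late light arrays were those of ZT6 and ZT10 and the late dark arrays those of ZT18 and ZT22, where ZT, zeitgeber time, is the number of hours since the lights came on. They were chosen by the hour in each sample's label, on both days of collection, and make up 8 of the 13 arrays of the study. The late light group holds the arrays of hours 6, 10, 30 and 34 and the late dark group those of hours 18, 22, 42 and 46, named ZT6 to ZT46 here, so ZT30 is ZT6 of the second day. All skin came from male C57Bl6 mice on postnatal day 46, kept on a cycle with 12 h of light (ZT0 to ZT12) and 12 h of darkness, with no treatment or genetic change named in the labels for any array. The labels place the skin in telogen, when follicles rest between rounds of hair growth. RNA of 3 mice was pooled for each array, so an array is a separate pool of animals. The 4 arrays of a group are 2 times of day on 2 days. The spread within a group, on which the SE and test rest, therefore includes changes between its times of day as well as the spread between pools. The remaining 5 arrays, at ZT2 and ZT14, enter the comparison at the end and some alternative fits. In whole skin, a change in the number of cells of a type and a change in RNA per cell cannot be told apart.

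The circadian clock is a feedback loop of transcription. CLOCK and BMAL1 (encoded by *Arntl*) bind the E-box and drive the genes of their own repressors, the PER and CRY proteins, together with *Nr1d1* and *Nr1d2*, which encode the REV-ERB receptors. REV-ERBs repress *Arntl* and *Nfil3* through a response element, the RORE, that they share with the activating ROR receptors. DBP, TEF and HLF activate genes through the D-box, which NFIL3 represses. In mouse skin this loop runs in keratinocytes, fibroblasts and fat cells, and it is known for the daily timing of cell division and of responses to ultraviolet light. Mice rest in the light and are active and feed mostly in the dark.

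Median intensity was 363 to 393 on the 8 arrays, and the arrays correlated with one another at 0.914 to 0.989 over 14953 genes, a description across genes that are not replicates. Mean correlation with the other 7 arrays was lowest for ZT46, at 0.947. Keratinocyte and dermal markers were bright on every array: *Krt5* ranged from 14282 to 15571, *Krt10* from 13016 to 14689.7 and *Col1a1* from 16142 to 17428. Some marker sums differed strongly between arrays. The summed intensity of 44 keratin associated protein genes, which belong to the hair shaft, was 204782 on ZT46 and at most 30196 on the other 7 arrays. The summed intensity of 15 liver genes was 118745 on ZT10 and 16266 on ZT46, with ranges of 27212 to 118745 in late light and 16266 to 71899 in late dark. All 15 had a mean difference above 0, against 58.0% of all genes tested, with a median of 0.46, and none was called. Without ZT46, 5 of the 15 were above 0 and the median was -0.10. The part of these transcripts in the differences of genes that liver also expresses was not tested. Because of ZT46, each count was also taken without it. The median over genes of log2(intensity + 16) was 8.99 ± 0.019 in late light and 8.95 ± 0.016 in late dark (SD, n = 4 each; two-sided exact permutation test, p = 0.0857, smallest possible 0.0286).

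Of 14953 genes tested, 47 differed between late light and late dark at an adjusted p under 0.05 (0.314%), and these are the genes referred to as called. Higher in late light were 30 (0.201%) and higher in late dark 17 (0.114%). The test was limma's moderated test on log2(intensity + 16) with Benjamini-Hochberg adjustment over all genes tested, and every difference is late light minus late dark on that scale, which understates the fold of dim genes. Folds of the called genes ranged from 1.33 to 10.1 with a median of 1.57, and 7 genes in late light and 4 in late dark reached 2-fold. On all 47 the 4 arrays of one group lay wholly above the 4 of the other, which over all genes tested held for 5.72% in the late light direction and 2.01% in the late dark direction. At an unadjusted p under 0.05, 1251 genes were higher in late light (8.37%) and 371 in late dark (2.48%), together 10.8%. That imbalance depends on the scale of the arrays: after quantile normalization the numbers were 808 and 755, and after shifting every array to the same median 784 and 583. Without ZT46, 12 genes were called (0.0803%), all among the 47, and the largest move of a called gene's difference was 0.17, for *Nr1d2* (2.34 with ZT46 and 2.17 without it). The 12 were *Dbp*, *Nr1d1*, *Nr1d2*, *Ciart*, *Bhlhe40*, *Bhlhe41*, *Nfil3*, *Ppp1r3c*, *Lrrc30*, *Hsph1*, *Rasd1* and *Rsad1*, so the calls of the other 35 genes were lost without ZT46. Leaving out another array gave 14 calls without ZT6, 18 without ZT10, 15 without ZT30, 6 without ZT18 and 6 without ZT34, and the calls numbered 58 without ZT22 and 56 without ZT42. With day as a block 15 of the 47 were called: *Ankdd1a*, *Bhlhe40*, *Bhlhe41*, *Ciart*, *Cpt1a*, *Dbp*, *Hsph1*, *Hyou1*, *Irs2*, *Lrrc30*, *Nfil3*, *Nr1d1*, *Nr1d2*, *Rasd1* and *Rsad1*. The other 32 lost their call under that block.

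**Figure D1:**
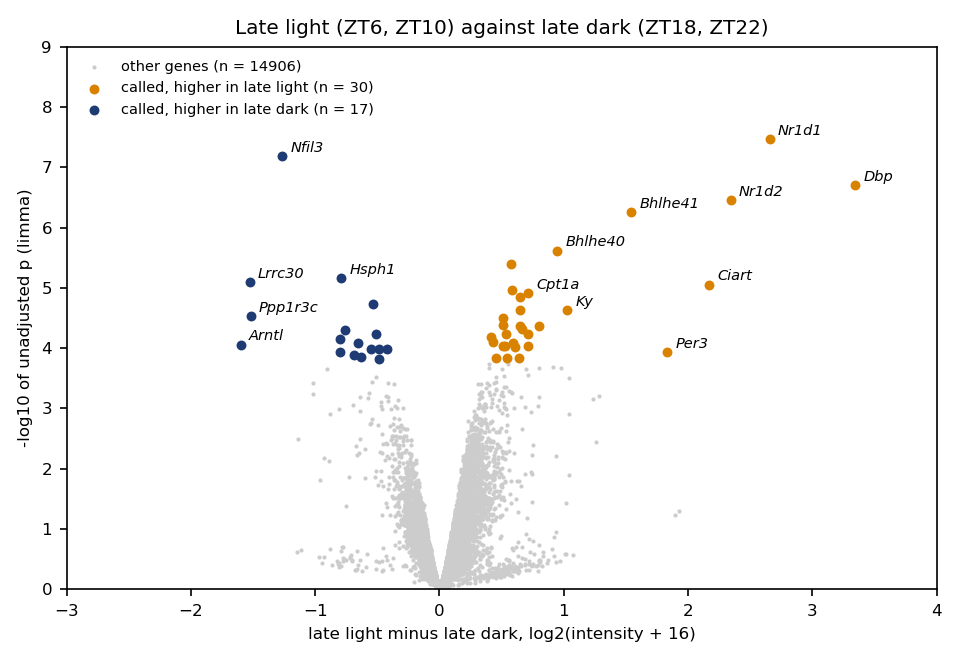
Each point is 1 of the 14953 genes tested, with the mean difference between the 4 late light and the 4 late dark arrays on the x axis (log2(intensity + 16), positive for higher in late light) and -log10 of limma's unadjusted p on the y axis. The 30 genes called higher in late light reach a difference of 3.34 (*Dbp*) and the 17 called higher in late dark reach -1.60 (*Arntl*).

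Of 13 repressor and kinase genes tested, 6 were called higher in late light and none higher in late dark. Over all genes tested these shares were 0.201% and 0.114%. The median difference of the 13 was 0.95, the highest of the 45 gene lists, against 0.024 over all genes tested. *Nr1d1* gave intensities of 10545, 8196, 9894 and 8632 at ZT6, ZT10, ZT30 and ZT34, and of 1988, 1392, 1113 and 1459.9 at ZT18, ZT22, ZT42 and ZT46. Every late light array was far above every late dark array, with a difference of 2.66 ± 0.16 (SE), 6.31-fold, adjusted p = 0.000479. All values below follow the same order of arrays. For *Nr1d2*, the second REV-ERB gene, late light arrays read 2490.4, 2820.3, 2356 and 2919 and late dark arrays 461, 597, 686 and 348, again without overlap (2.34 ± 0.18 (SE), 5.07-fold, adjusted p = 0.00131). These genes encode receptors that repress transcription when heme is bound.

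The DEC genes encode basic helix-loop-helix repressors that compete at the E-box. *Bhlhe41* (DEC2) read 1368, 1281, 949.7 and 1370.1 in late light and 395, 479, 408 and 369 in late dark, a difference of 1.54 ± 0.13 (SE), 2.91-fold, adjusted p = 0.00166. *Bhlhe40* (DEC1) read 1587, 1642, 1533 and 1558 against 843, 691, 948 and 781, with its late light arrays close together, and differed by 0.95 ± 0.093 (SE), 1.93-fold, adjusted p = 0.00598. Neither gene's groups overlapped. *Ciart*, which encodes the repressor CHRONO, read 1562, 2658, 1115 and 2573 in late light and 442, 402, 387 and 378 in late dark (2.17 ± 0.25 (SE), 4.49-fold, adjusted p = 0.0132). Its ZT10 and ZT34 values were the highest, at 2658 and 2573, while its 4 late dark values lay within 378 to 442.

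The 3 period genes, whose proteins inhibit CLOCK and BMAL1 directly, did not share a result. *Per3* was called, with 1323, 2148, 1034 and 2212 in late light against 368, 425, 702 and 329 in late dark (1.83 ± 0.29 (SE), 3.56-fold, adjusted p = 0.0420), and it lost the call in 10 of 20 alternative settings, among them the removal of ZT46 (adjusted p = 0.147). *Per1* did not pass the test: 2296, 3497, 1974 and 3611 against 982, 907, 1762 and 1162, a difference of 1.23 ± 0.25 with adjusted p = 0.101, and its groups did not overlap. *Per2* read 675, 1545, 421 and 1537 in late light and 455, 455, 879 and 519 in late dark (adjusted p = 0.604). ZT6 lay within the range of the dark arrays, ZT30 lay below all of them, and only ZT10 and ZT34 stood above them. Within the light phase all 3 were higher at ZT10 than at ZT6 on both days.

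The cryptochromes, partners of the PER proteins, had differences of opposite sign, neither of which passed the test. *Cry1* read 247, 368, 199 and 361 in late light and 514, 679, 658 and 541 in late dark (-1.02 ± 0.19, adjusted p = 0.0840), and *Cry2* read 1617, 1602, 1414 and 1617 against 1042, 1084, 1318 and 1099.5 (0.46 ± 0.088, adjusted p = 0.0961). The groups of arrays of both genes were separate. The casein kinase genes that phosphorylate PER showed small differences, 0.16 for *Csnk1e* and -0.0012 for *Csnk1d*. *Btrc*, which encodes a ubiquitin ligase subunit for PER, differed by 0.21 (adjusted p = 0.285). *Fbxl21* was among the dimmest 25% of genes and was not tested.

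Of 4 activator and ROR genes tested, *Arntl* alone was called, higher in late dark, against 0.114% of all genes tested. It read 646, 369, 828 and 409 in late light and 1663, 2065, 1329 and 1627 in late dark, with no overlap and its lowest values at ZT10 and ZT34 (-1.60 ± 0.24 (SE), 3.03-fold, adjusted p = 0.0396). *Arntl* lost the call in 8 of 20 alternatives, including the removal of ZT46 (adjusted p = 0.129), with the difference then at -1.61. *Clock* had separate groups, 2001, 1611, 2283 and 1739 against 2843, 2823, 2343 and 2698, and did not pass (-0.49 ± 0.12, adjusted p = 0.158). *Arntl2* and *Rora* differed by -0.034 and 0.14. *Rorb* was too dim to be tested.

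The list of clock output genes holds factors that carry the clock's timing to other genes, and also genes of other kinds. Of 14 tested, 2 were called higher in late light (*Dbp* and *Klf9*) and 3 in late dark. Of these 3 *Nfil3* is such a factor, while *Ppp1r3c* and *Leo1* are of other kinds. Over all genes tested 0.201% were called higher in late light and 0.114% in late dark. *Dbp* had the largest difference of any gene tested. It read 5889, 6524, 4552 and 6225 in late light and 468, 434, 995 and 458 in late dark (3.34 ± 0.25 (SE), 10.1-fold, adjusted p = 0.000977). Its ZT42 value of 995 was above the other 3 dark arrays and still far below every light array. The related *Tef* and *Hlf* did not pass, at 1.28 ± 0.25 (adjusted p = 0.0971) and 0.80 ± 0.16 (adjusted p = 0.0973), although neither gene's groups overlapped.

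*Nfil3*, the D-box repressor, had the opposite order to *Dbp*. Its arrays read 196, 250.1, 248 and 231 in late light and 554, 587, 563 and 599 in late dark (-1.26 ± 0.082 (SE), 2.4-fold, adjusted p = 0.000479). No late dark array came near the late light range. *Klf9*, a Kruppel-like factor that also responds to glucocorticoids, was called higher in late light at 2887, 3469, 3309 and 3482 against 2011, 1931, 2544 and 1959 (0.64 ± 0.10 (SE), 1.56-fold, adjusted p = 0.0473), and lost the call in 13 of 20 alternatives. *Ppp1r3c* encodes a subunit that brings protein phosphatase 1 to glycogen, and it was higher in late dark: 953, 492, 829 and 650.2 in late light and 1962, 2496, 2260.5 and 1637 in late dark (-1.52 ± 0.20 (SE), 2.87-fold, adjusted p = 0.0261). *Leo1*, a subunit of the PAF1 transcription elongation complex, was called in the same direction (-0.49 ± 0.079 (SE), 1.4-fold, adjusted p = 0.0473). Among those that did not pass were *Usp2*, *Wee1* and *Nampt*, with differences of 0.52, 0.54 and 0.23.

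**Figure D2:**
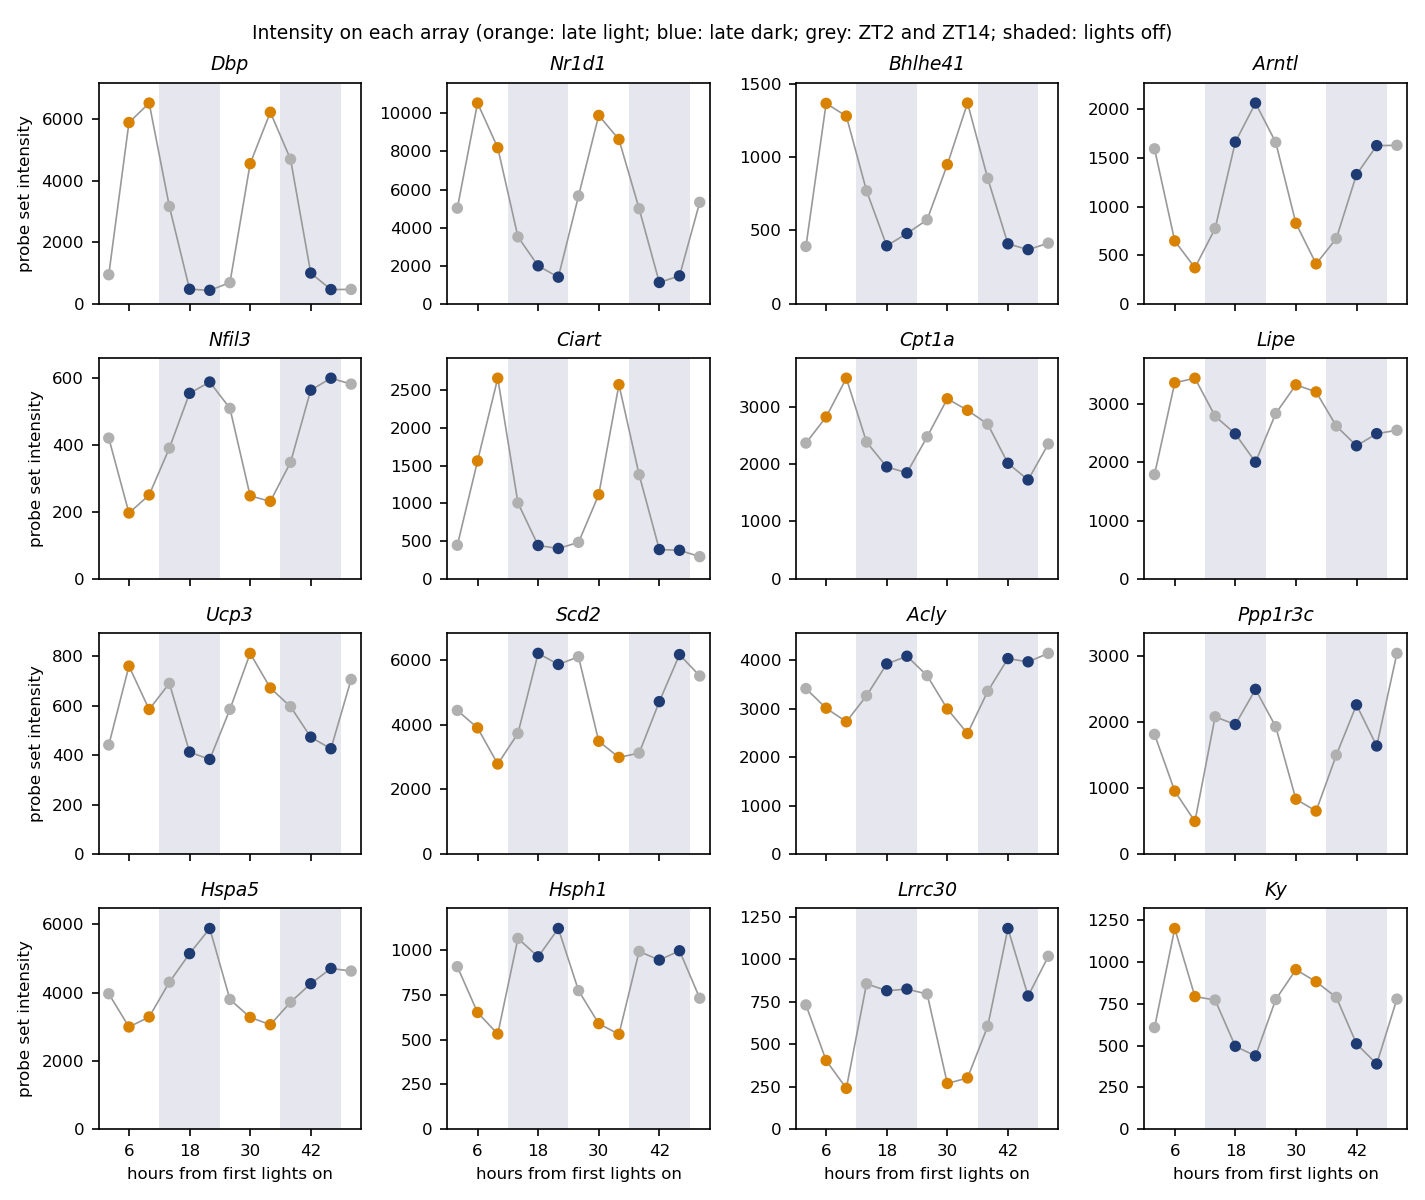
Probe set intensity (linear, y axis from 0) of 16 called genes on each of the 13 arrays against hours from the first lights on, with late light arrays in orange, late dark arrays in blue, ZT2 and ZT14 arrays in grey and lights-off hours shaded. *Nfil3* lies between 196 and 250.1 on the late light arrays and between 554 and 599 on the late dark arrays, and *Dbp*, *Nr1d1*, *Bhlhe41* and *Ciart* show the opposite order.

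The promoters of several of these genes hold the elements named above, and stretches are printed to show what the letters look like in genes that were high at one time or the other. The sequences come from RefSeq on GRCm38.p6, cover 250 bases before to 50 bases after a gene's start, and are written 5′ to 3′ on the gene's strand with the searched element in capitals. *Ciart* (chr3:95882248-95882307, minus strand) has 3 E-boxes (CACGTG) in its promoter, 2 of them in this stretch. *Bhlhe41* (chr6:145865542-145865601, minus strand) has 1 E-box, 153 bases before the start. *Per3* (chr4:151044814-151044873, minus strand) has no E-box in this window and 2 D-boxes. The 3 genes were higher in late light.
Ciart: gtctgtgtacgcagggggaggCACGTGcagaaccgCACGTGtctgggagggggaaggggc
Bhlhe41: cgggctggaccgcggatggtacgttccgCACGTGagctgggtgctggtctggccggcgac
Per3: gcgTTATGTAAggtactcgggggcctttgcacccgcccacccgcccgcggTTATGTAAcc
*Nfil3* (chr13:52981040-52981099, minus strand) and *Arntl* (chr7:113207528-113207555, plus strand), both higher in late dark, hold a RORE, in *Nfil3* on the opposite strand and in *Arntl* 27 bases after the start. *Nfil3* was chosen for printing after its values were seen.
Nfil3: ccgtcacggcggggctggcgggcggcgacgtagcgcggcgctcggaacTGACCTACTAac
Arntl: ggaaggcagaAAGTAGGTCAgggacgga

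Over the 11767 genes tested with a promoter in the RefSeq table, 11.0% held an E-box, 0.977% a D-box (TTATGTAA or TTACGTAA) and 0.578% a RORE (AGGTCA or GGGTCA straight after AANT or TANT), with both strands read and N standing for any base. Of the 30 genes called higher in late light, 24 had a promoter, and of these 9 (37.5%) held an E-box, 1 a D-box and none a RORE. Of the 17 called higher in late dark, 13 had a promoter: 4 held an E-box (30.8%) and 3 a RORE (23.1%). The genes with a RORE were *Arntl*, *Nfil3* and *Leo1*. Among the clock-list genes called higher in late light, *Ciart* and *Bhlhe41* alone had an E-box match. No searched element was found for *Dbp*, *Nr1d1*, *Nr1d2*, *Bhlhe40* or *Klf9*. A called gene without a promoter in the RefSeq table also gives no match. E-boxes stood in the promoters of genes called in both directions, for example *Slc43a1*, *Irs2* and *Lipe* in late light and *Ppp1r3c*, *Lonrf3* and *Hsph1* in late dark. A gene was counted where any of its promoters held the letters. A match describes letters in this window only, and these shares were not tested.

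Of 21 lipolysis, fatty acid oxidation and lipid droplet genes tested, 3 were called higher in late light and none in late dark. Over all genes tested these shares were 0.201% and 0.114%. The median difference of the 21 was 0.20. *Cpt1a*, whose product carries long-chain fatty acids toward oxidation in mitochondria, read 2821, 3497, 3139 and 2937 in late light and 1951, 1847, 2014 and 1724 in late dark (0.71 ± 0.085 (SE), 1.64-fold, adjusted p = 0.0153). *Lipe*, hormone-sensitive lipase, read 3367, 3445, 3331 and 3209.8 against 2489, 2003, 2285 and 2493 (0.53 ± 0.081 (SE), 1.44-fold, adjusted p = 0.0396). *Ucp3*, a mitochondrial carrier of muscle and fat, read 760.3, 585, 812 and 672 against 412, 382, 473 and 426 (0.71 ± 0.11 (SE), 1.64-fold, adjusted p = 0.0396). All 3 had separate groups. *Plin4*, a lipid droplet coat protein gene, differed by 0.42 ± 0.10 without passing (adjusted p = 0.155), and *Pdk4*, which holds back glucose oxidation, by 1.26 ± 0.33 (adjusted p = 0.200).

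Of 22 genes of fatty acid and triglyceride synthesis, 2 were called, both higher in late dark, against 0.114% of all genes tested. The median difference of the 22 was -0.10. *Scd2*, a stearoyl-CoA desaturase, read 3906, 2786, 3491 and 2992 in late light and 6216, 5872, 4720.1 and 6178 in late dark (-0.80 ± 0.13 (SE), 1.75-fold, adjusted p = 0.0420). *Acly*, which makes the acetyl-CoA that fatty acids are built from, read 3013, 2732, 2996 and 2489.6 against 3928, 4087, 4038 and 3971 (-0.51 ± 0.074 (SE), 1.43-fold, adjusted p = 0.0338). Its dark arrays lay within a narrow band above every light array. *Thrsp* and *Acaca*, an inducer of lipogenesis and acetyl-CoA carboxylase, differed by -1.01 ± 0.20 (adjusted p = 0.0971) and -0.46 ± 0.10 (adjusted p = 0.113). *Pnpla3*, a lipid droplet protein gene outside these lists, was called higher in late dark: 1423, 1103, 1273 and 1009 against 2307, 2008, 1832 and 2246 (-0.80 ± 0.12 (SE), 1.74-fold, adjusted p = 0.0370). Without ZT46 none of the lipid genes named here was called, and their differences were 0.67 for *Cpt1a*, 0.57 for *Lipe*, -0.77 for *Scd2* and -0.52 for *Acly*. Of 20 cholesterol genes none was called, 17 had differences below 0 and the median was -0.14. Over all genes tested 6274 of 14953 were below 0.

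Among adipocyte markers, which include *Lipe* and *Acly*, 1 of 18 was called in each direction, and their summed intensity was 59271 to 63858 in late light and 57269.6 to 60128 in late dark. The ranges overlapped. The part of fat cell numbers in the lipid gene differences was not tested.

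*Slc6a6*, the taurine transporter, read 4123, 4722, 3762 and 5012 in late light and 2417, 2388, 2954 and 2329.7 in late dark (0.80 ± 0.11 (SE), 1.74-fold, adjusted p = 0.0306). *Slc43a1*, a carrier of large neutral amino acids, read 1451, 1502, 1445 and 1325 against 840.2, 801, 1066 and 905 (0.66 ± 0.093 (SE), 1.58-fold, adjusted p = 0.0320). They were the 2 called of 14 amino acid carriers, which had a median difference of 0.19. Over all genes tested 0.201% were called higher in late light. *Pik3ip1*, an inhibitor of PI3 kinase, was higher in late light (725, 751, 705 and 835 against 399.7, 478, 538 and 410.2; 0.71 ± 0.10 (SE), 1.64-fold, adjusted p = 0.0338).

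A further set of called genes falls outside the naming rule and was chosen after the values were seen. *Irs2*, an adaptor of the insulin receptor, read 1030.2, 1063, 967 and 1111 in late light and 688, 651, 735 and 694 in late dark (0.58 ± 0.068 (SE), 1.5-fold, adjusted p = 0.0146). *Txnip*, which limits glucose uptake, read 6346, 7056, 6812 and 7658 against 4251, 5108, 5192 and 4581 (0.54 ± 0.088 (SE), 1.46-fold, adjusted p = 0.0473). *Inpp5k*, a phosphoinositide phosphatase, and *Rasd1*, a small GTPase induced by glucocorticoids, were likewise higher in late light, at 0.43 ± 0.065 (adjusted p = 0.0393) and 0.58 ± 0.060 (adjusted p = 0.00871). *Rasd1* was also called without ZT46 (adjusted p = 0.0328). The 11 others of this kind were *Sectm1b*, *Lncpint*, *Gm6498*, *Gpr146*, *Cecr2*, *Ache*, *St6galnac5*, *Slc10a6* and *Ccr9* in late light and *Flvcr2* and *Timp4* in late dark, with folds of 1.33 to 1.57.

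The protein-folding genes lay toward late dark. Over all genes tested 0.114% were called higher in late dark and 6274 of 14953 differences were below 0. Of 26 genes of the unfolded protein response and endoplasmic reticulum folding, 3 were called higher in late dark and none in late light, 23 differences were below 0 and the median was -0.19. *Hspa5* (BiP), the main chaperone of that compartment, read 2994, 3287, 3275 and 3061 in late light and 5144, 5881, 4264 and 4709.6 in late dark (-0.65 ± 0.10 (SE), 1.57-fold, adjusted p = 0.0393). *Hyou1*, its nucleotide exchange factor, read 951, 927, 955 and 833 against 1389.6, 1340.2, 1295 and 1296 (-0.53 ± 0.067 (SE), 1.45-fold, adjusted p = 0.0196). *Sdf2l1*, a partner of its folding cycle, read 968, 880.1, 1003 and 774 against 1627, 1631, 1274 and 1363 (-0.69 ± 0.11 (SE), 1.61-fold, adjusted p = 0.0463). On all 3 genes the lowest dark array was above the highest light array.

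The *Hspa5* promoter (chr2:34772004-34772063, plus strand) holds the endoplasmic reticulum stress element, CCAAT and CCACG with 9 bases of any kind between them, which 0.144% of promoters of genes tested hold, starting 65 bases before the start. It was chosen for printing after the values were seen.
Hspa5: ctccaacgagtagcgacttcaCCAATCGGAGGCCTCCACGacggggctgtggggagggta

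Cytosolic heat shock genes showed the same order: 2 of 20 were called higher in late dark and none in late light. The median was -0.22 with 18 differences below 0. The background was again 0.114% called higher in late dark and 6274 of 14953 genes below 0. *Hsph1*, a cochaperone of HSP70, read 652, 532, 589.9 and 530.3 in late light and 964, 1122, 946 and 998 in late dark (-0.79 ± 0.088 (SE), 1.73-fold, adjusted p = 0.0128), and was also called without ZT46 (adjusted p = 0.0438). *Hsp90aa1*, the inducible HSP90 gene, read 1474, 1657, 1975 and 1699 against 2363, 2973, 2567 and 2680.0 (-0.64 ± 0.10 (SE), 1.55-fold, adjusted p = 0.0473). *Stip1* and *Fkbp4*, cochaperones of HSP90, differed by -0.42 ± 0.085 (adjusted p = 0.104) and -0.36 ± 0.075 (adjusted p = 0.112). Of the 5 folding genes called, *Hsph1* alone was called without ZT46.

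Of 4 genes on the cold-inducible list, which includes the RNA-binding protein genes *Cirbp* and *Rbm3*, none was called. The median was 0.28, with *Rtn3*, a reticulon gene, and *Srsf5* near 0 at 0.038 and 0.087. *Cirbp* read 1036, 1012, 1153 and 1186 in late light and 758, 847, 718 and 650.3 in late dark and did not pass (0.55 ± 0.093, adjusted p = 0.0546). It was not called in 14 of 20 alternatives, among them the removal of ZT46 (adjusted p = 0.154), and was called in the other 6, quantile normalization included. *Rbm3* read 5934, 6122, 6119 and 6467 against 4194, 5924, 3920.4 and 3945 (0.47 ± 0.13, adjusted p = 0.209).

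Glucocorticoid-responsive genes, the targets of the adrenal hormone that in mice peaks near lights off, were all above 0. That count was 20 of 20, or 19 after quantile normalization and 18 without ZT46, against 58.0% of all genes tested, and the median difference was 0.26. *Klf9* alone was called, and it was not called without ZT46. *Per1* and *Angptl4*, a circulating lipase inhibitor, belong to the same list and did not pass (0.52 ± 0.11, adjusted p = 0.113 for *Angptl4*).

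No gene of cell division was called. Of the 14953 genes tested, 6274 had a difference below 0. All 25 mitosis and G2 genes tested had a difference below 0, also after quantile normalization and without ZT46, and the median was -0.27. At an unadjusted p under 0.05, 8 were higher in late dark (32.0%), against 2.48% of all genes tested, and none was higher in late light. Without ZT46 the 8 fell to 4 of 25, against 301 of 14953 genes tested. *Bub1*, a spindle checkpoint kinase, read 162, 154, 198 and 186 in late light and 243, 298, 193 and 263 in late dark (adjusted p = 0.227). *Anln*, whose product anillin works where dividing cells pinch apart, read 654, 532, 727 and 611 against 914, 1189, 643 and 953 (adjusted p = 0.300). The groups overlapped for every mitosis gene. Of 30 replication and S phase genes 26 were above 0, or 24 after quantile normalization, with a median of 0.10. Over all genes tested 58.0% were above 0, or 7020 of 14953 after quantile normalization. *Dtl* and *Mcm3*, a ubiquitin ligase adaptor of S phase and a subunit of the replicative helicase, differed by 0.31 ± 0.082 (adjusted p = 0.210) and 0.27 ± 0.082 (adjusted p = 0.264).

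A thin sheet of skeletal muscle underlies the skin. *Ky*, a protein needed in muscle, read 1202, 794, 955 and 883 in late light and 496, 438, 511 and 390.0 in late dark (1.03 ± 0.13 (SE), 2.04-fold, adjusted p = 0.0218). *Lrrc30*, a leucine-rich repeat gene, was opposite, at 404, 239.8, 269 and 301 against 815, 825, 1181 and 784 (-1.53 ± 0.17 (SE), 2.88-fold, adjusted p = 0.0131). Of 29 skeletal muscle markers none was called and 27 were above 0, against 58.0% of all genes tested, with a median of 0.28. Their summed intensity was 156904 to 196278 in late light and 130495 to 163997 in late dark. At an unadjusted p under 0.05, 15 of the 29 were higher in late light (51.7%), against 8.37% of all genes tested. Without ZT46 the number was 5 of 29, against 861 of 14953 genes tested. *Ky* and *Lrrc30* had separate groups, and *Lrrc30* was also called without ZT46 (adjusted p = 0.0328). *Ky* had the sign of 27 of the 29 markers and *Lrrc30* the opposite sign. The part of muscle content in the differences of *Ky*, *Ucp3* and *Lrrc30* was not tested.

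Other called genes belong to no list. *Tgfb2*, a growth factor that acts in follicle regression and regrowth, read 1789, 1487, 1646 and 1907 in late light and 1087, 1091, 1019 and 1115 in late dark (0.65 ± 0.084 (SE), 1.57-fold, adjusted p = 0.0218). *Rsad1* read 628, 687, 612 and 633 against 430.3, 404, 427 and 352 (0.65 ± 0.079 (SE), 1.57-fold, adjusted p = 0.0164) and was also called without ZT46. *Lonrf3*, a RING finger protein, was higher in late dark at 156, 177, 165 and 188 against 256, 370.2, 299 and 291 (-0.76 ± 0.11 (SE), 1.7-fold, adjusted p = 0.0320), and so was *Ankdd1a* (-0.55 ± 0.086 (SE), 1.47-fold, adjusted p = 0.0398). The groups of all 4 were separate.

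In the remaining lists no gene was called. *Pfkfb3*, which sets the pace of glycolysis, differed by 0.98 ± 0.17 (adjusted p = 0.0582), and *Pgam1* and *Aldoc*, enzymes of the pathway, by -0.31 and 0.30. The 54 oxidative phosphorylation genes lay between -0.083 and 0.19. Of 15 interferon-responsive genes, 7 had an unadjusted p under 0.05 in the late light direction (46.7%), against 8.37% of all genes tested. Without ZT46 the number was 4 of 15, against 861 of 14953 genes tested. *Ifit2* differed by 0.45 ± 0.12 (adjusted p = 0.216). Of 22 nucleotide excision repair genes, which remove ultraviolet damage from DNA, *Xpa* differed most (0.33 ± 0.11, adjusted p = 0.298) and the median was 0.0030. *Spon2* and *Adamts4*, genes of the extracellular matrix, had large differences of -1.14 ± 0.29 and -0.88 ± 0.19 that did not pass (adjusted p = 0.196 and 0.129). Of 21 epidermal differentiation genes 17 were above 0, or 11 after quantile normalization, with a median of 0.10. Over all genes tested 58.0% were above 0, or 7020 of 14953 after quantile normalization. Of the 21, *Ivl* (involucrin) went the other way, at -0.54 ± 0.10 (adjusted p = 0.0840), while *Lce3c* differed by 0.50 (adjusted p = 0.126). Hair shaft genes had a median of -0.57 with ZT46 and 0.093 without it.

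**Figure D3:**
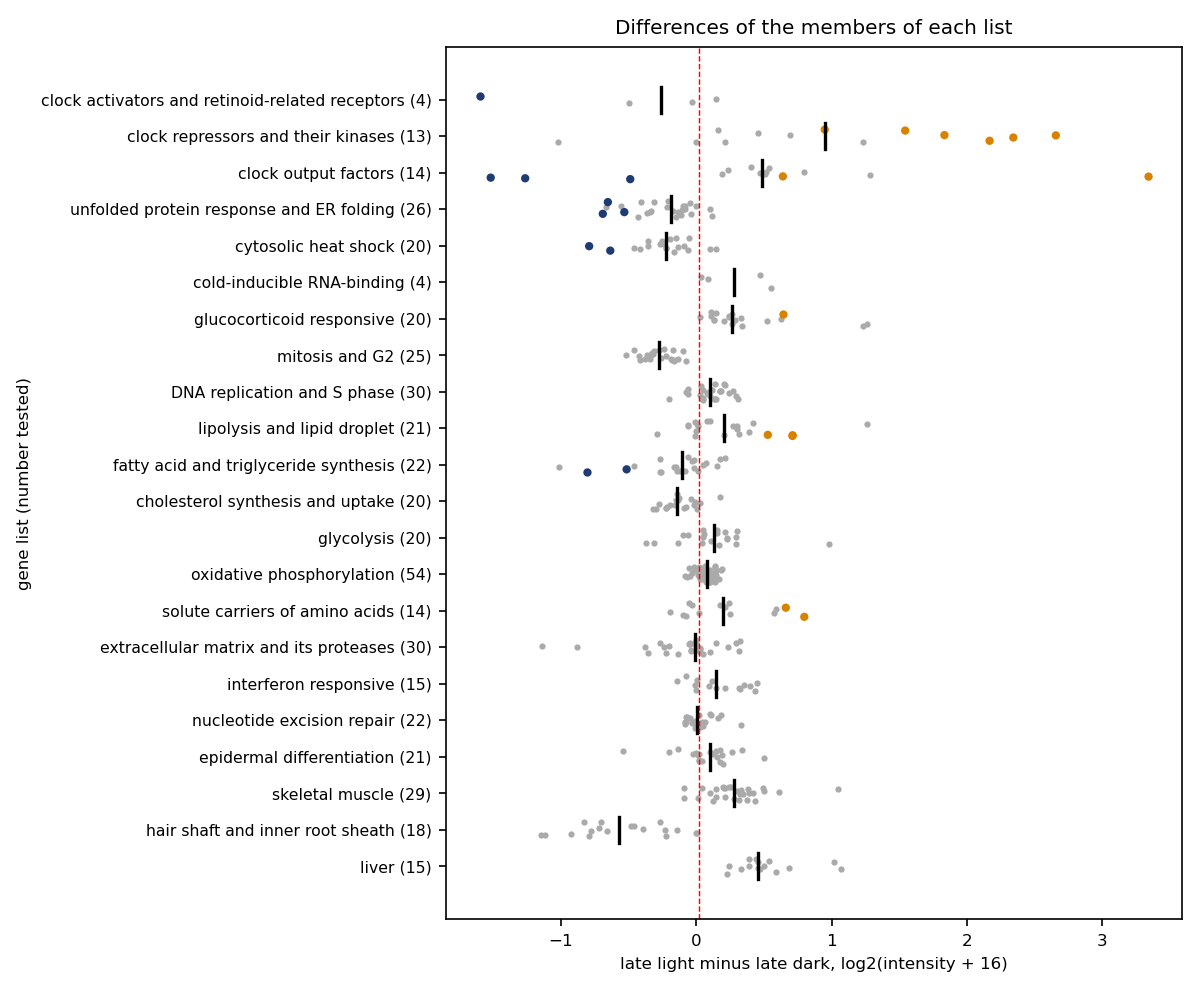
Difference between late light and late dark (x axis, log2(intensity + 16)) for every tested member of 22 gene lists (y axis, number tested in brackets). Orange and blue points are genes called higher in late light and in late dark, grey points are not called, black bars are medians and the dashed line is the median of all genes tested, 0.024. Of these lists the clock repressors have the median farthest to the right, 0.95, and all 25 mitosis genes lie left of 0.

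The comparison was then split by day. On both days all 47 called genes had the same sign, which their separate groups require. The difference was larger on the first day for 33 of them and on the second for 14. That split was not counted over all genes tested, so it shows nothing particular to the called genes. *Dbp* differed by 3.74 on the first day and 2.95 on the second, *Arntl* by -1.89 and -1.31, and *Nr1d1* by 2.47 and 2.84. The interaction of day with the comparison called 0 of 14953 genes (0.0%) with limma, and 771 had an unadjusted p under 0.05 (5.16%). The smallest unadjusted p values belonged to the probe sets of *Mirlet7c-1*, *Cyp2g1*, *Mir181b-1*, *Sfrp2* and *Zfp229*, each with an adjusted p of 0.589. *Sfrp2*, a modulator of WNT signalling, differed between late light and late dark by -0.42 on the first day and 0.13 on the second. Without ZT42 the interaction called 46 genes, with ZT46 then the only late dark array of its day.

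**Figure D4:**
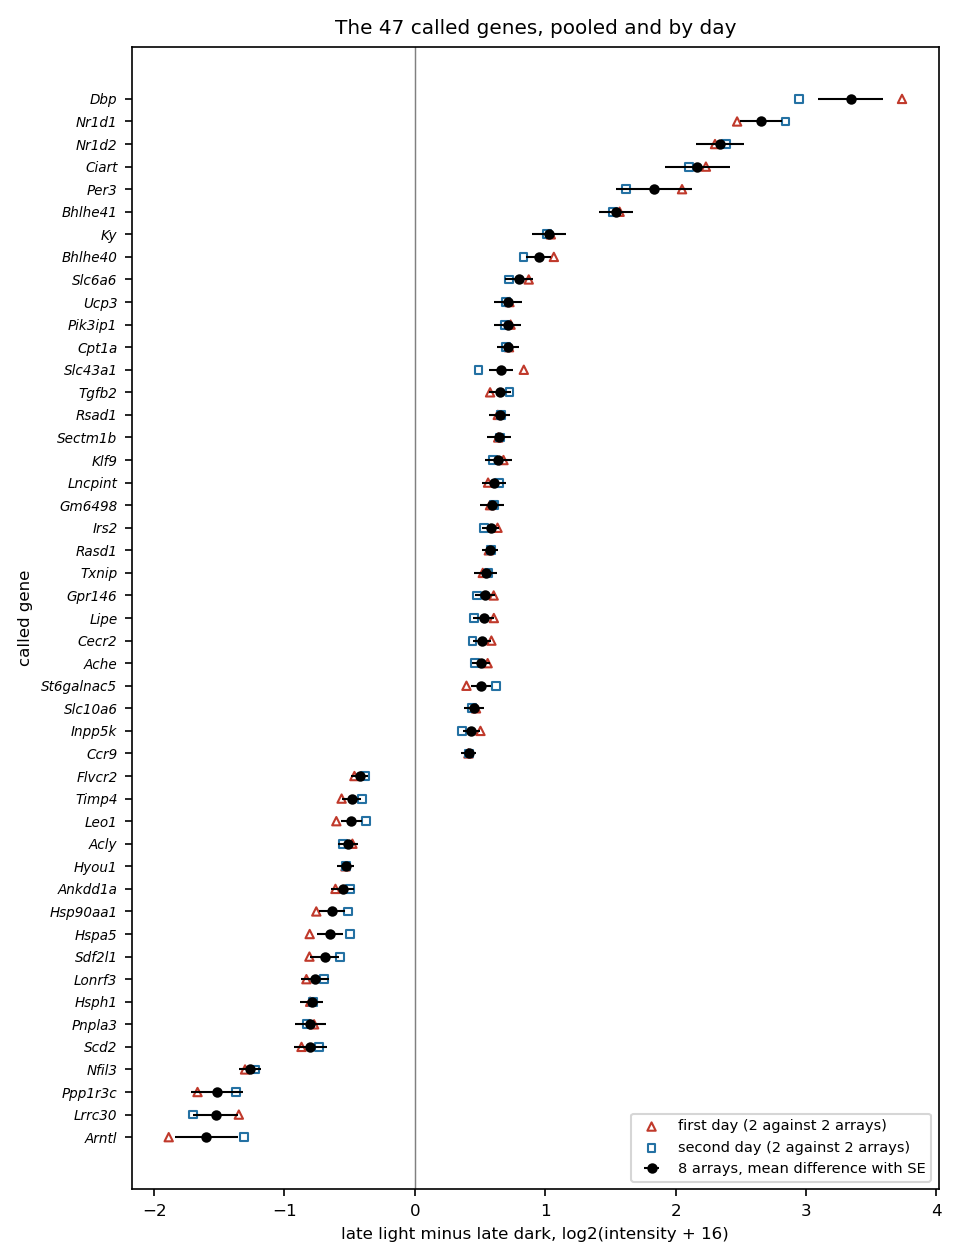
Difference between late light and late dark (x axis, log2(intensity + 16)) of each of the 47 called genes (y axis). Black points with bars are the mean over 8 arrays with its SE, red triangles the first day and blue squares the second day, 2 against 2 arrays each. The days lie on the same side of 0 for every gene, and *Dbp* is at 3.74 on the first day and 2.95 on the second.

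The comparison also holds 2 pairs of times that lie 12 h apart, ZT6 against ZT18 and ZT10 against ZT22. For 38 of the 47 called genes the difference was larger between ZT10 and ZT22, and for 9 between ZT6 and ZT18. This split was not counted over all genes tested, so it shows nothing particular to the called genes. *Arntl* differed by -1.01 in the earlier pair and -2.19 in the later, *Per3* by 1.18 and 2.49, and *Ciart* by 1.64 and 2.70. *Nfil3* and *Lrrc30* were nearly alike in both pairs, at -1.28 and -1.25 for *Nfil3* and -1.53 and -1.53 for *Lrrc30*. Tested gene by gene with limma, the difference between the pairs called 0 of 14953 genes (0.0%), and 619 had an unadjusted p under 0.05 (4.14%). *Fam107a*, *Wee1*, *Ppp1r3b*, *Spon2* and *Rasd2* had the smallest p, with an adjusted p of 0.802 each. *Wee1*, whose product delays mitosis by inhibiting CDK1, differed by 0.053 between ZT6 and ZT18 and by 1.02 between ZT10 and ZT22. *Spon2* differed by -0.42 and -1.86. Without ZT46 this test called 1149 genes, without ZT22 37 and without ZT34 1, with a lone array then standing for that time of day.

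The late comparison was also set against another pair of hours 12 h apart, ZT2 (3 arrays) minus ZT14 (2 arrays). No array is shared between these comparisons, although the estimate of spread is. The late difference departed from the ZT2 and ZT14 difference in 212 of 14953 genes (1.42%), 119 with a more positive value in the late comparison (0.796%) and 93 with a more negative one (0.622%). The number rose to 502 without ZT46, 290 without ZT2 and 251 without ZT22. It fell to 49 without ZT14 and 37 without ZT38. It also fell without ZT6 (104), ZT10 (121), ZT18 (112), ZT26 (137), ZT30 (104), ZT34 (182), ZT42 (186) and ZT50 (129). Of the 47 called genes 32 were among the 212. The gap contains the difference that chose the 47, so this count is a description and shows nothing particular to them. The same holds for the gap test of each called gene given below. For 37 of the 47, ZT2 minus ZT14 had the opposite sign, a share that was not counted over all genes tested. *Dbp* differed by 3.34 at the late times and by -2.50 between ZT2 and ZT14, with a test of the gap of 5.84 ± 0.41 (adjusted p = 0.000140). *Per2*, not called at the late times at 0.70, stood at -3.60 between ZT2 and ZT14, so the gap was 4.29 ± 0.32 (adjusted p = 0.000140).

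*Nr1d1* kept its sign, at 2.66 late and 0.35 between ZT2 and ZT14, where its means were 5337 and 4251 (gap adjusted p = 0.00199). *Arntl* and *Nfil3* changed sign, with 1.16 and 0.42 between ZT2 and ZT14. Of the lipid genes, *Cpt1a* was at -0.081, *Acly* at 0.17 and *Scd2* at 0.63 between ZT2 and ZT14, and the gaps passed the test (adjusted p = 0.0133, 0.0186 and 0.00625). Each gap includes the late difference by which the gene was called, so passing is not separate support. For 15 called genes the gap did not pass, among them *Tgfb2* (0.19 between ZT2 and ZT14), *Hspa5* (0.041), *Hsph1* (-0.35) and *Lonrf3* (-0.59), which does not show that their differences are equal.

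**Figure D5:**
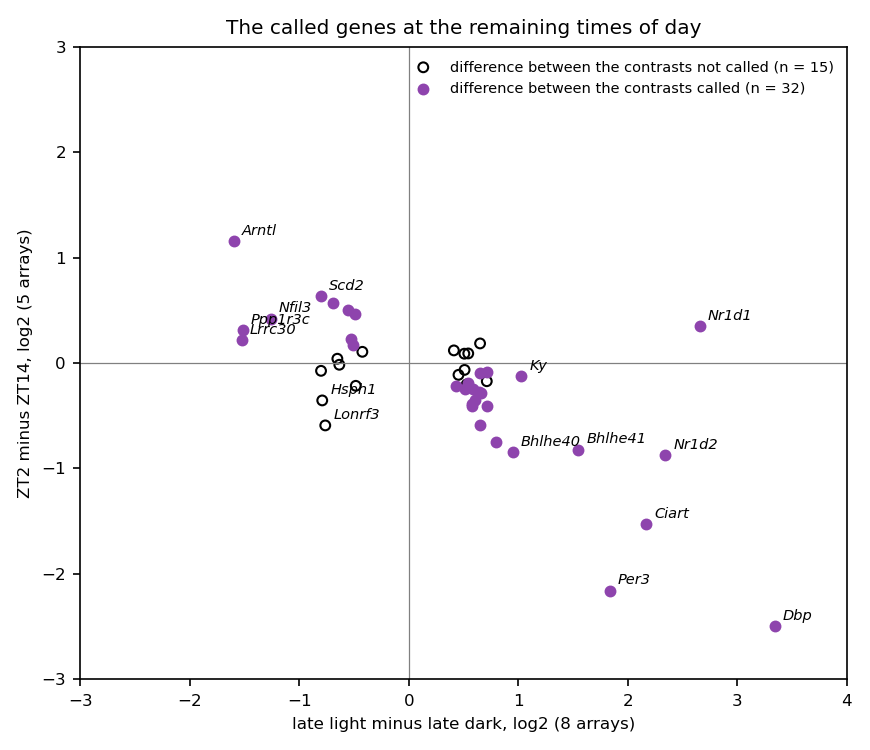
Each point is 1 of the 47 called genes, with the late light minus late dark difference (8 arrays) on the x axis and the ZT2 minus ZT14 difference (5 arrays) on the y axis, both in log2(intensity + 16). *Dbp*, at 3.34 and -2.50, and *Arntl*, at -1.60 and 1.16, lie in opposite corners, and *Nr1d1* is at 2.66 and 0.35.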

How the data were processed

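Probe set intensities of 13 mouse back skin arrays were used, 1 pool of 3 mice each, of which 8 enter the comparison. The authors deposited them as linear intensity values. The tools listed in the submitters' processing notes are Affymetrix Expression Console 1.1.1 and PLIER 2.0. How arrays were normalized to one another, and the genome build, is not given in the sources used here, so a shift of a whole array cannot be told apart from a change of most genes. Samples were grouped by the hour in their labels. The platform annotation gave 1 gene for 21789 of 35557 probe sets, several for 1621 and did not list 12147. Gene identifiers of 21698 matched RefSeq, which updated symbols. For 999 genes with several probe sets the one with the highest mean was kept, giving 19938 genes.

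Levels are log2(intensity + 16), and the 25% of genes with the lowest mean were dropped. Tests used limma 3.58.1 in R 4.3.3 (lmFit, eBayes), and p-values were adjusted over 14953 genes by Benjamini-Hochberg, with 0.05 as threshold. The tests were late light minus late dark on 8 arrays, its interaction with day, the difference between its pairs of times (ZT10 against ZT22 minus ZT6 against ZT18), and its difference from ZT2 against ZT14 on time-of-day means of 13 arrays. The script was tested on simulated data. Alternatives were the offset (1, 64), the filter (none, 50%), quantile normalization, a shift to the same median, the mean of probe sets, time-of-day means, day as a block, array weights, a trended robust prior and leaving out each array.

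The comparison, the 45 gene lists and the rule for named genes were chosen with earlier results of these data known, so none is independent support. Of 874 listed genes 798 were measured. The rule named all genes of the clock lists, the 15 largest called differences in each direction whose groups of arrays do not overlap, the 4 smallest p of each other list and the 5 smallest of each other test, and up to 4 promoters. The number of arrays limits the precision.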

Additional observations from a re-analysis of the deposited data

Results flagged for a closer look

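Among 102 groups of 4 arrays (the called genes under the naming rule and the clock genes), 8 held an array that stood apart from the other 3 by Dixon's criterion. That criterion is set for about 1 group in 20 where values are alike and groups independent. These groups mix 2 times of day and share their arrays, so the rate cannot be applied to the 8. In 7 of the 8 it was the ZT42 array of the late dark group: *Dbp* at 995, *Klf9* at 2544, *Slc6a6* at 2954, *Lrrc30* at 1181, *Tef* at 1625, *Hlf* at 1371 and *Tspan4* at 2067. The other was *Cry2* at 1414 on ZT30 of late light. Several named genes that were not called also departed from ZT2 against ZT14, among them *Angptl7*, *Spon2*, *Tef*, *Hlf*, *Per1* and *Clock*. They are left out of the values below, which cover only the called genes that departed and *Per2*. For these the difference between the 2 differences is given in log2. It was more positive at the late times for *Dbp* (5.84), *Per2* (4.29), *Per3* (3.99), *Ciart* (3.69), *Nr1d2* (3.22), *Bhlhe41* (2.37), *Nr1d1* (2.31), *Bhlhe40* (1.80), *Slc6a6* (1.55), *Sectm1b* (1.24), *Ky* (1.15), *Pik3ip1* (1.12), *Irs2* (0.99), *Rasd1* (0.97), *Lncpint* (0.96), *Slc43a1* (0.95), *Klf9* (0.91), *Gm6498* (0.84), *Cpt1a* (0.79), *Cecr2* (0.76), *Rsad1* (0.74), *Gpr146* (0.73) and *Inpp5k* (0.65). It was more negative for *Arntl* (-2.76), *Ppp1r3c* (-1.83), *Lrrc30* (-1.74), *Nfil3* (-1.69), *Scd2* (-1.44), *Sdf2l1* (-1.26), *Ankdd1a* (-1.06), *Leo1* (-0.95), *Hyou1* (-0.76) and *Acly* (-0.69).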

How the results depend on the processing

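No call of a gene named here changed its sign in any alternative. Of 4049 single-gene values under alternatives, 3779 stayed on the same side of the threshold, 197 lost a call and 73 gained one. Most of the 205 named genes tested were not called to begin with, and those that stayed uncalled count among the 3779. The 197 lost calls come from the called genes alone, so 3779 of 4049 is not the share of calls that held. *Bhlhe40*, *Bhlhe41*, *Dbp*, *Nr1d1* and *Nr1d2* were called in each of 20 alternatives, and *Nfil3* in the 19 that tested it (it is among the dimmest 50%). The 47 calls became 15 with day as a block (10 higher in late light, 5 in late dark), 94 with time-of-day means over 13 arrays (63 and 31) and 513 with array weights (417 and 96). Genes higher in late dark numbered 10 with no filter, and genes higher in late light 19 after quantile normalization. With 1 array left out the calls ranged from 6 to 58, those in late light from 5 to 46 and those in late dark from 1 to 13. The interaction with day gave 0 to 46 calls. The difference between pairs of times gave 0 to 1149, where a lone array of a time of day is assumed to vary like the others. The difference from ZT2 against ZT14 gave 37 to 502 calls. The causes were not tested. No paired analysis was possible because the labels give no replicate numbers shared between the groups; day was the only block. List counts under other scalings and under time-of-day means were added after the data were seen. Dim genes are limited by signal over background, and 4 arrays a group by their number.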
